A study of Mus musculus with 4 samples.

Results

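The genes described here mark T cells in the thymus and in the days after they leave it. They are 8 of the 22911 genes that the arrays measured through a RefSeq accession: Dntt, Rag1, Rag2, Ptcra, Arpp21, Itm2a, Cd24a and Themis. They were chosen by name, with earlier results of these data known. All 15 of their non-control probes, of 56605 probes in all, were followed across 4 subsets of CD8 T cells. Of the 8 genes, 4 were well above background on all 4 arrays (Dntt, Itm2a, Cd24a and Themis), 1 on a single array (Arpp21) and 3 on none (Rag1, Rag2 and Ptcra).

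The cells were sorted by flow cytometry from untreated C57BL/6 mice (spleen and lymph node) aged 1 to 3 months, in which both copies of the gene for PD-1 are disrupted; all 4 subsets share this genotype, and no wild-type cells were compared. P4 was CD44low CD62Llow, the subset the study set out to characterise. The effector memory phenotype, CD44high CD62Llow, is P3; the central memory phenotype, CD44high CD62Lhigh, is P2; and the naive phenotype, CD44low CD62Lhigh, is P1. Total RNA of each subset was hybridised to 1 single-colour Agilent array, which leaves differences between subsets without replicates and without any test. The sources used here do not give the number of mice pooled for a subset.

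T cell receptor genes are assembled in the thymus by the recombinase RAG1 and RAG2, while terminal transferase, the product of Dntt, adds untemplated nucleotides at the joints. The pre-T cell receptor alpha chain encoded by Ptcra tests a new beta chain, and THEMIS and the membrane protein ITM2A belong to the steps around positive selection. Thymocytes carry much CD24, also called heat stable antigen, which recent thymic emigrants lose as they mature in spleen and lymph node. CD24 is also carried by B cells, dendritic cells and red cell precursors, and terminal transferase, RAG and the pre-T cell receptor alpha chain are known outside the thymus in early lymphoid and plasmacytoid dendritic cells. Arpp21 encodes an RNA-binding protein abundant in thymocytes and striatal neurons.

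The bases before the start of 3 members are shown because Dntt and Itm2a differed between P2 and P1 in opposite directions and Rag1 was at background in all subsets. RefSeq windows of build GRCm38.p6 were found for 7 of the 8 members, all but Cd24a. Each line gives the 250 bases before the annotated start, 5′ to 3′ on the gene's strand, and capitals mark matches on either strand to the short motifs listed after them.
Dntt (chr19:41029025-41029274, plus strand): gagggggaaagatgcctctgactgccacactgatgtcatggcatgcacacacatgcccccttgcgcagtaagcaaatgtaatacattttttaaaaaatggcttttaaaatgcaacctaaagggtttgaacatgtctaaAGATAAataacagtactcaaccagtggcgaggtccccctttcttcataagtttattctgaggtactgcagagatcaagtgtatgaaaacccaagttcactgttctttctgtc
Itm2a (chrX:107403361-107403610, minus strand): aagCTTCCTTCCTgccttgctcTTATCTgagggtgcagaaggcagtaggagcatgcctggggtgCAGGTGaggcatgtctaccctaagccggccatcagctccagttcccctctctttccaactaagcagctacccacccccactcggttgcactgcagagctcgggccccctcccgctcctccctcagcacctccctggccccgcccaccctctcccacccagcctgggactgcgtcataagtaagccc
Rag1 (chr2:101649533-101649782, minus strand): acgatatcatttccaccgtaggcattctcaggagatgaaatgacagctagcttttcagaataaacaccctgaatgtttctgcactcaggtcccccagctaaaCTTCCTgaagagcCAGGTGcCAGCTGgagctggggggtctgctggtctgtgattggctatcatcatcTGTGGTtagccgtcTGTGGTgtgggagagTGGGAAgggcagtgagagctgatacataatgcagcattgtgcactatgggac

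The motifs searched were TATAAA (the core promoter box of that name), TGGGAA (Ikaros core), TGTGGT (RUNX core), CTTTGA (TCF/LEF core), AGATAA (core of the GATA factors), the E-boxes CAGGTG and also CAGCTG and AGGAAG (ETS core). Dntt had 1 match, an AGATAA, which 9.99% of all 32851 such windows hold. Itm2a had 4 matches, namely 1 AGATAA, 1 CAGGTG (held by 17.2% of windows) and 2 AGGAAG (29.5%) that overlap each other. Rag1 had 6, with 2 TGTGGT (14.05%) and 1 each of TGGGAA (21.6%), AGGAAG, the E-box CAGGTG and the E-box CAGCTG (13.0%). The first motif listed (12.4%) and the TCF/LEF core (13.8%) were in none of these 3 windows. These are matches of letters, and what binds there was not measured.

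Levels are given as log2 of the processed signal relative to the 75th percentile of the same array, so that a level of 0 is a signal of 453 on the P4 array, 799 on P3, 480 on P2 and 481 on P1. Differences are taken between arrays within 1 probe. Levels of different probes enter together in choosing the probe that represents a gene and in summed signals, where the brightest probes of a list weigh most. Differences of genes other than the members are given without a half-width. Each measured difference of a member has a 95% half-width from the spot errors that the extraction software reports, which are about 10% of signal for bright spots. These cover the array measurement; mice, sorts and labelling reactions add variation that was not measured. The lowest level well above background was -4.82 on P4, -5.36 on P3, -4.58 on P2 and -4.67 on P1. All 6 listed CD8 T cell markers were well above background on every array, with summed signals of 531, 464, 510 and 617 times the 75th percentile in P4, P3, P2 and P1. Cd44 had levels of -1.24, 2.11, 2.26 and -1.80 in the same order. Pdcd1, the disrupted gene, had levels of 1.70, 1.76, -3.06 and -3.30; whether its probe lies in the deleted part was not examined, so it checks no genotype.

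**Figure D1:**
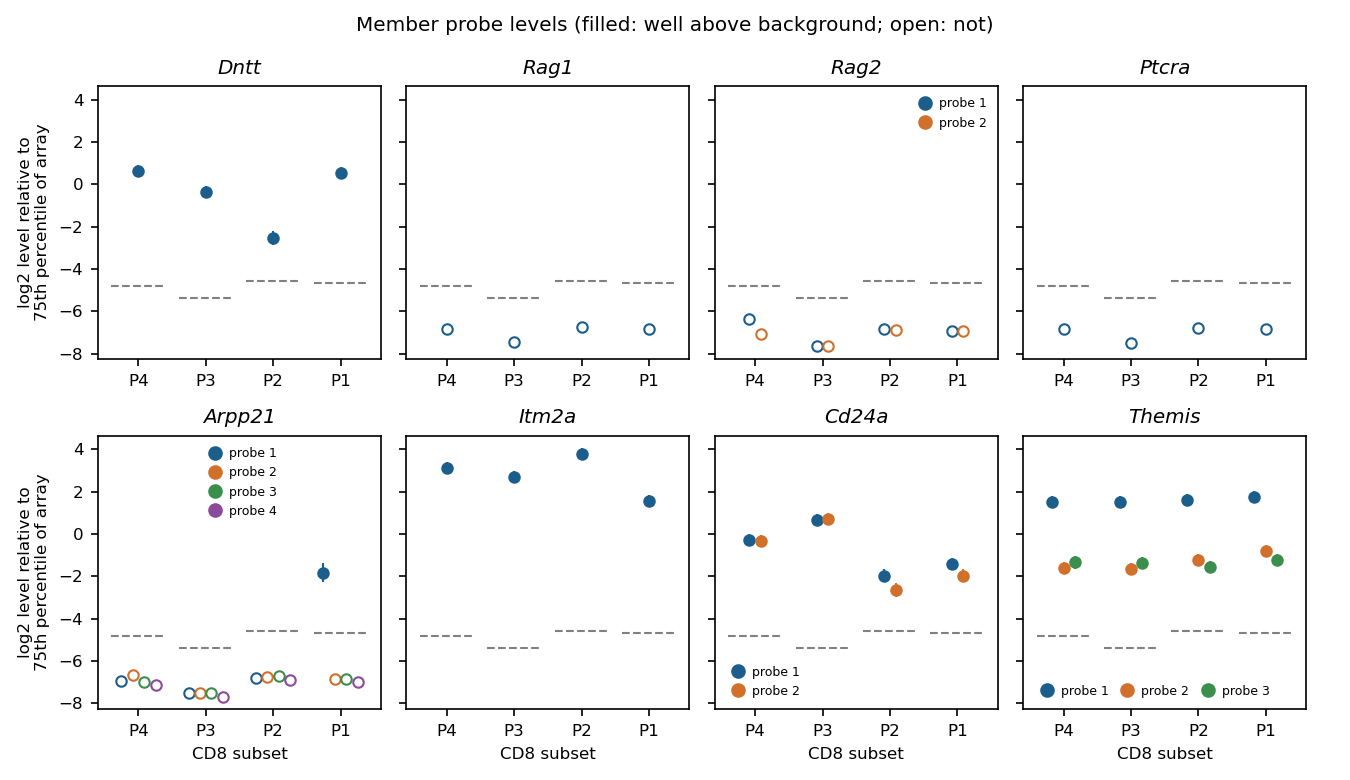
Level of each member probe (log2 relative to the array's 75th percentile, y axis) in P4, P3, P2 and P1. Each point is 1 probe on 1 array, bars are 95% intervals from the software's spot error, open points are not well above background and dashes mark the lowest level well above background. Dntt is lowest in P2, Itm2a is highest in P2, Cd24a is highest in P3, and Arpp21 has 1 filled point among 16.

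Dntt, which encodes terminal transferase, was read by 1 probe. Its processed signal was 712 in P4, 627 in P3, 83.0 in P2 and 696 in P1, which are levels of 0.65, -0.35, -2.53 and 0.53. P4 and P1, the CD44low subsets, had the highest levels, P3 was lower and P2 was far below the other three. In a sorted population, fewer cells that carry a transcript and less of it per cell cannot be told apart.

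The P4 minus P1 difference of Dntt was 0.12 ± 0.40 (95% half-width), so their order was not resolved by the spot error. Against P2, Dntt was 3.18 ± 0.43 higher in P4 (9.08-fold), and 99.6% of the 13122 genes measured in that pair had a smaller or more negative difference. It was 2.18 ± 0.43 higher in P3 than in P2 (4.54-fold), and P2 minus P1 was -3.07 ± 0.43. P3 lay between, with P4 minus P3 at 1.00 ± 0.40 and P3 minus P1 at -0.88 ± 0.40.

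The software corrected the Dntt spot for trends across the array, most on P4. The processed signal was 1.20 times the background-subtracted signal on P4, against 1.08 on P3, 1.04 on P2 and 1.06 on P1. Normexp correction of median pixel signals has no such step, but it adds an offset of 50, which shrinks differences that involve dim spots. With it, P4 minus P1 was -0.13, P4 minus P2 2.15 and P4 minus P3 0.71. How much of each change came from the offset, the median signals or the missing step was not tested. In the authors' deposited table P4 minus P3 was 0.95, so Dntt sat at the 2-fold threshold there or below it, depending on the processing.

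Markers of other cells that can carry Dntt were read on the same arrays. The 4 early B cell markers had summed signals of 0.41, 0.66, 0.84 and 0.34 times the 75th percentile in P4, P3, P2 and P1. Among them Igll1 was not well above background on any array, and Vpreb1 had levels of -1.68, -1.60, -1.58 and -1.71 in the same order. Vpreb3 was above background in P4 (-4.28) and P3 (-2.81) only, and Cd93 in P4 (-4.31), P3 (-2.43) and P2 (-1.10), where Dntt was lowest. All 8 plasmacytoid dendritic cell markers were above background somewhere, with summed signals of 97.3, 78.4, 82.8 and 94.8 times the 75th percentile. Among them Klk1 was above background in P3 alone, at -0.63, and Cox6a2 had levels of -3.96 in P4, 1.53 in P3, -3.26 in P2 and -4.37 in P1. Tcf4 (-1.53, 1.64, -3.20 and -2.003) and Irf8 (2.65, 4.37, 1.68 and 0.64) were also highest in P3, whereas Siglech was lowest there (5.63, 4.34, 5.77 and 5.59). Ccr9 was lowest in P2 (4.11, 1.65, -0.94 and 4.09), and Bst2 (3.41, 3.94, 3.73 and 3.90) and Pacsin1 (3.74, 3.64, 3.46 and 3.69) varied less. The part of such cells in the Dntt levels was not tested.

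Rag1 and Rag2, whose products form the recombinase, gave no signal well above background. The Rag1 probe read 3.98 in P4, 4.54 in P3, 4.48 in P2 and 4.28 in P1. The 2 Rag2 probes read 5.49 and 3.35 in P4, and their other 6 readings, in P3, P2 and P1, lay between 3.89 and 4.16. The lowest signal well above background was 16.1, 19.5, 20.02 and 18.9 on these arrays, so each reading lay below it.

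Ptcra was also at background, with 3.95 in P4, 4.46 in P3, 4.41 in P2 and 4.23 in P1. The medians of 308 negative control spots were 3.58, 4.31, 4.35 and 4.14. One Rag2 reading, 5.49 in P4, was above 96.4% of the negative control spots of its array; the second Rag2 probe there was above 23.1% of them. No thymus sample was on these arrays, so nothing shows how well these 4 probes read their transcripts, and 37.3% of all 22911 genes were likewise above background on no array.

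Arpp21 rested on 1 spot. Its 4 probes, assigned to the transcripts NM_001177619, NM_028755, NM_001177617 and NM_001177623, were at background in 15 of 16 readings. The first read 137 in P1, a level of -1.81, against 3.67 in P4, 4.33 in P3 and 4.37 in P2. The other 3 probes read 4.20, 4.24 and 3.77 in P1 and between 3.24 and 4.56 on the other arrays. The probes therefore disagreed on P1, where 1 was well above background and 3 were not, and all 4 were at background in P4, P3 and P2.

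That P1 spot differed from other spots in several measured ways. Among its 19 nearest spots, those within 32 position units, 6 exceeded their counterparts on each of the other arrays by 2-fold or more, namely by 1.25 to 6.27 on the log2 scale, whereas 3 was the number taken to mark a locally bright area on that array. On P4, P3 and P2 the same neighbourhood held 0, 1 and 0 such spots. Its background-subtracted mean pixel signal was 1.56 times its median pixel signal less the median local background. That ratio was higher than in any of the other 3966 spots within 1.5-fold of its brightness, whose median ratio was 0.89. Its error estimate was 16.5% of signal, against a median of 10.4% for those spots.

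**Figure D2:**
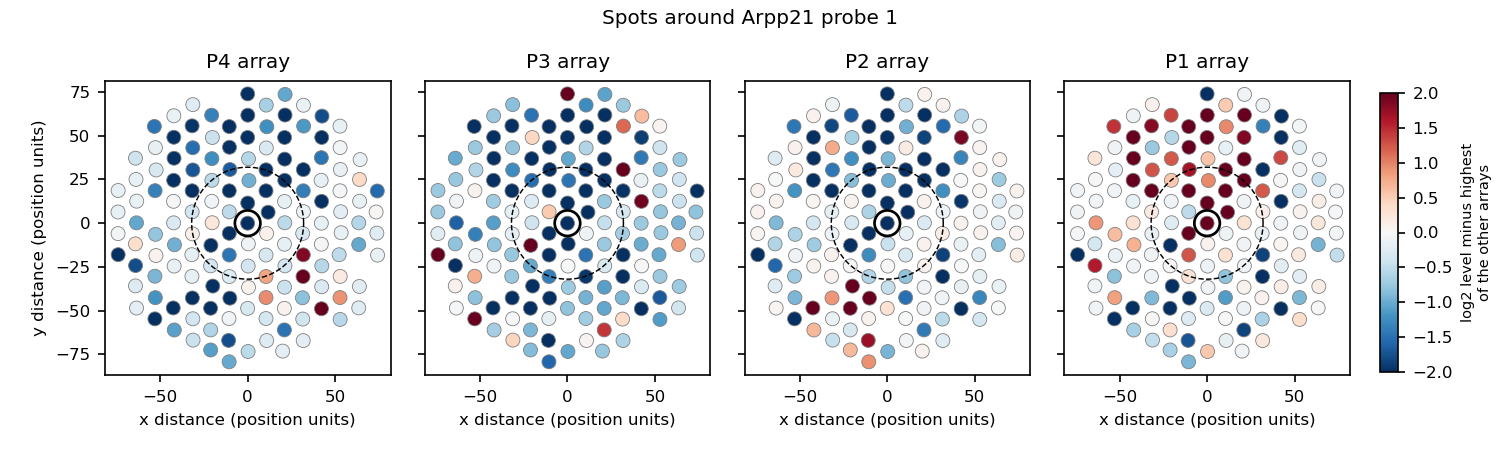
Spots around Arpp21 probe 1 on each array, placed by x and y distance in scanner position units, with the Arpp21 spot circled and a dashed radius of 32 units. Colour is the log2 level of a spot minus the highest of the same spot on the other 3 arrays, cut at -2 and 2. The raised spots of P1 form a patch that runs through and above the Arpp21 spot, and no such patch is at that place on P4, P3 or P2.

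By the signal as deposited, Arpp21 relative to P1 was at least 8.03-fold lower in P4, at least 11.7-fold lower in P3 and at least 6.82-fold lower in P2. Normexp correction adds an offset of 50, which shrinks differences that involve dim spots. With it, on median pixel signals, the differences were -0.84, -1.50 and -1.04. Leaving out this spot left no Arpp21 probe above background and no difference to report. Of 196 genes above background in P1 alone, 84 (42.9%) lay in locally bright areas, against 2.41% of all genes on that array.

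Itm2a, a BRICHOS family membrane protein gene induced during positive selection in the thymus and by activation of mature T cells, was higher in P2 than in P1, opposite to Dntt in that pair. Its single probe read 3981 in P4, 5128 in P3, 6575 in P2 and 1420 in P1, which are levels of 3.14, 2.68, 3.77 and 1.56. It was highest in P2 and lowest in P1, the naive phenotype, with both CD62Llow subsets between.

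P4 minus P1 was 1.57 ± 0.40 for Itm2a (2.98-fold), P3 minus P1 was 1.12 ± 0.40 and P2 minus P1 was 2.21 ± 0.40 (4.64-fold). The last exceeded the difference of 98.5% of 12951 genes. P4 minus P2 was -0.64 ± 0.40 and P3 minus P2 was -1.09 ± 0.40. P4 minus P3, at 0.45 ± 0.40, barely passed its half-width and was 0.39 in the lowest of the alternatives run. Low CD62L thus went with a higher Itm2a level among CD44low cells and with a lower one among CD44high cells.

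Cd24a, the gene of heat stable antigen, was read by 2 probes of the same transcript that gave the same order on the 4 arrays. The first read 374 in P4, 1268 in P3, 123 in P2 and 180 in P1, levels of -0.28, 0.67, -1.96 and -1.42. The second read 359, 1329, 76.8 and 123, levels of -0.34, 0.73, -2.64 and -1.96. P3 was highest, P4 second, and both CD62Lhigh subsets were low, P2 lowest. On P2 the spot of the first probe had 3 raised neighbours, the number that marks a locally bright area there, and the second probe's had 0.

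By the first probe Cd24a was 1.15 ± 0.41 higher in P4 than in P1 (2.21-fold), and 1.68 ± 0.41 higher in P4 than in P2 (3.21-fold), and by the second 1.63 ± 0.41 and 2.31 ± 0.44. P4 minus P3 was -0.94 ± 0.40 and -1.07 ± 0.40, so the probes fell on either side of 2-fold. P3 minus P2 was 2.63 ± 0.41 and 3.38 ± 0.44, and P3 minus P1 was 2.09 ± 0.41 and 2.70 ± 0.41. P2 minus P1 was -0.54 ± 0.42 and -0.68 ± 0.45. Thus the probes had the same sign in all 6 pairs, and the second gave the larger size in each.

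Transcripts of other CD24-bearing cells moved with part of this pattern. The 9 conventional dendritic cell and class II markers had summed signals of 7.59 in P4, 217 in P3, 7.03 in P2 and 1.99 in P1, in multiples of the 75th percentile, with 7, 9, 7 and 3 of them above background. The 8 B cell markers summed to 4.73, 7.96, 5.01 and 5.53, with 4, 6, 3 and 2 above background, and Pax5 and Blk at background on every array. Of erythroid genes, the alpha globin gene Hba-a1 had levels of -1.74 in P4, 1.92 in P3, -2.28 in P2 and -3.15 in P1, and Alas2, an enzyme gene of haem synthesis in red cell precursors, was at background on every array. Macrophage and monocyte markers summed to 2.79, 22.6, 3.00 and 2.38, and granulocyte markers to 0.17, 1.18, 0.35 and 0.28. The part of such cells in the Cd24a level of P3, or of P4 against P1, was not tested.

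Themis, whose product binds GRB2 and tunes T cell receptor signalling in thymocytes, differed little between subsets. The probe for NM_001305663 read 1315 in P4, 2289 in P3, 1467 in P2 and 1633 in P1, levels of 1.54, 1.52, 1.61 and 1.76. None of its 6 differences passed its half-width; the widest was P3 minus P1 at -0.24 (interval -0.64 to 0.16). This does not show equal levels, and the intervals allow differences up to 0.64.

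The other Themis probes did not fully share this picture. The one for NM_178666 had levels of -1.34, -1.37, -1.55 and -1.23 in P4, P3, P2 and P1, and none of its differences passed its half-width either. The one for the noncoding transcript NR_131208 had levels of -1.59, -1.63, -1.21 and -0.79, highest in P1. By this probe P4 minus P1 was -0.80 ± 0.41, P3 minus P1 -0.84 ± 0.41 and P2 minus P1 -0.42 ± 0.41. Its P3 minus P2, at -0.43 ± 0.41, also passed its half-width. For P4 minus P3 the 3 probes had differences of 0.02, 0.04 and 0.03.

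**Figure D3:**
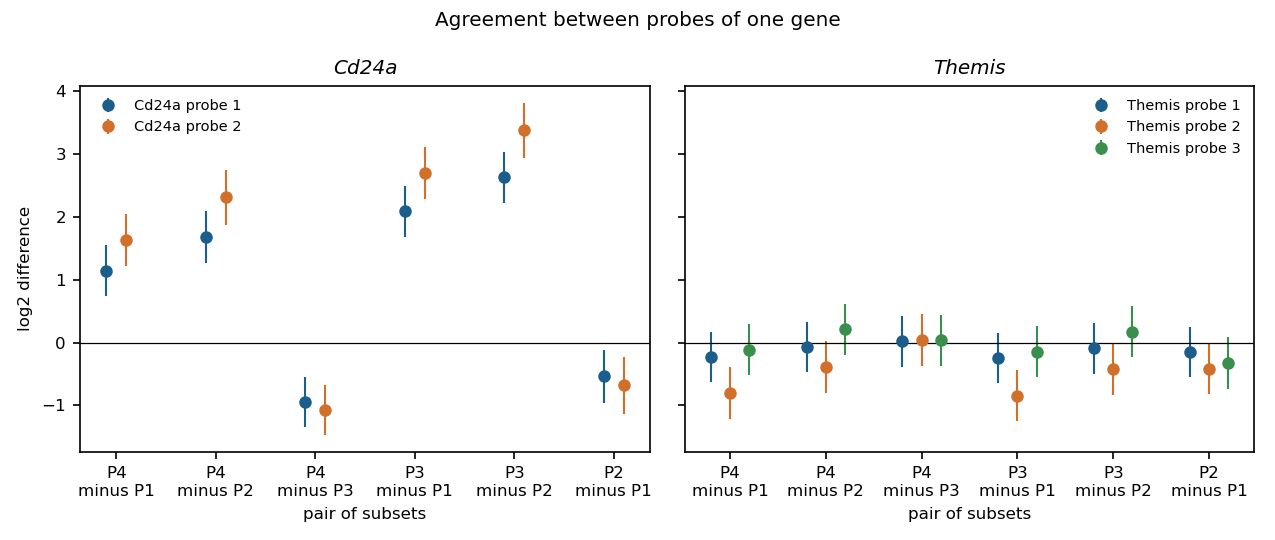
Log2 difference of each pair of subsets (y axis) for the 2 Cd24a probes and the 3 Themis probes, with 95% half-widths from the software's spot error. The Cd24a probes have the same sign in every pair, and Themis probe 2 stands below the others in P4 minus P1 (-0.80) and P3 minus P1 (-0.84).

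Members at least 2-fold apart were counted over genes, each by its probe with the highest mean level. In P4 minus P1, of 5 measured members 2 were at least 2-fold higher (Itm2a and Cd24a) and 1 lower (Arpp21), beside 5.47% of all measured genes higher and 1.75% lower. In P4 minus P2, of 4 members 2 were higher (Dntt and Cd24a) and 0 lower, beside 4.85% and 3.43% of all genes. In P4 minus P3, 1 of 4 was higher (Dntt, at the threshold) and 0 lower, beside 4.15% and 8.92%. In P3 minus P1, 2 of 5 were higher (Itm2a and Cd24a) and 1 lower (Arpp21), beside 12.4% and 7.11%. In P3 minus P2, 2 of 4 were higher (Dntt and Cd24a) and 1 lower (Itm2a), beside 10.5% and 5.69%. In P2 minus P1, 1 of 5 was higher (Itm2a) and 2 lower (Dntt and Arpp21), beside 4.76% and 2.53%. These members passed the background filter in at least 1 subset and the 3 at background could not enter, so the counts do not speak for all 8. The members were also chosen with earlier results of these data known, so counts beside shares are a description and no test. Without member probes in locally bright areas, which removes Arpp21, the counts were 2 higher and 0 lower in P4 minus P1 and in P3 minus P1, and 1 higher and 1 lower in P2 minus P1. At 4-fold either way the members past it were 1 in P4 minus P1 (Arpp21), 1 in P4 minus P2 (Dntt) and 0 in P4 minus P3, beside 2.76%, 2.51% and 4.3% of genes. Pairs that share a subset share its array.

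**Figure D4:**
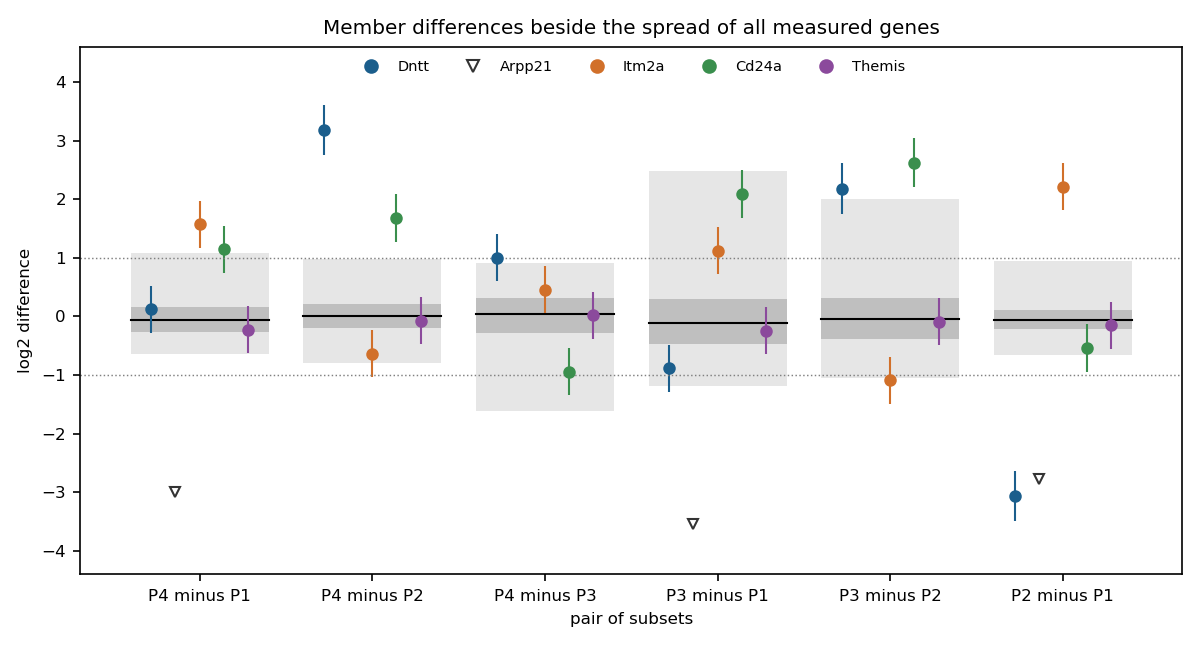
Log2 difference (y axis) of the 5 measured members in the 6 pairs of subsets, over light bars for the 5th to 95th percentile of all measured genes, dark bars for the 25th to 75th and a line for the median. Points have 95% half-widths from the spot error, open triangles are bounds and dotted lines mark 2-fold. Dntt stands above the light bar in P4 minus P2, P4 minus P3 and P3 minus P2 and below it in P2 minus P1. Itm2a stands above it in P4 minus P1 and P2 minus P1 and below it in P3 minus P2. Cd24a stands above it in P4 minus P1, P4 minus P2 and P3 minus P2, and the bounds of Arpp21 lie below it.

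The genes with profiles most like each member were found among 11832 other genes above background on all 4 arrays, by the root mean square distance between levels centred on their mean over the arrays. Nearest to Dntt was Itgae, which encodes CD103, the integrin chain that binds E-cadherin, at a distance of 0.13, with levels of 3.54 in P4, 2.50 in P3, 0.09 in P2 and 3.52 in P1. Pdlim4 (0.20) and Ldhb (0.35) followed, and 2 genes in all lay within 0.25 of Dntt. Nearest to Cd24a were Tox, a nuclear factor of thymocyte selection and of chronically stimulated T cells, at 0.07, Marcksl1 at 0.14 and Foxp3, the regulatory T cell factor, at 0.16. They were among 25 genes within 0.25 of Cd24a. Nearest to Itm2a were Gm12596 (0.17), Cracdl (0.26) and Il2rb (0.27), the interleukin-2 and interleukin-15 receptor beta chain. Themis, whose profile varied little, had 7602 genes within 0.25, led by Oga, Smad5 and Tm2d1. With 4 arrays these distances are a description.

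**Figure D5:**
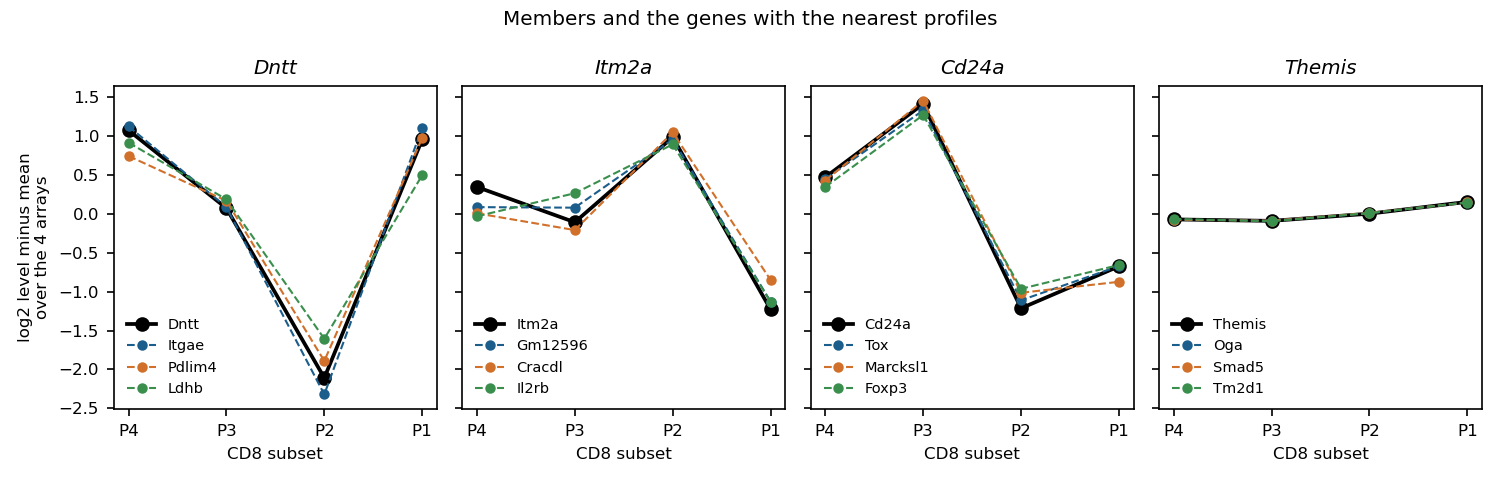
Level minus its mean over the 4 arrays (log2, y axis) in P4, P3, P2 and P1 for each member above background on all arrays (black) and its 3 nearest genes (dashed). Itgae follows Dntt with its low point in P2, and Tox follows Cd24a with its high point in P3.

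Genes known from recent thymic emigrants and naive cells did not move as 1 group. Their list, like the related lists after it, was chosen with earlier results of these data known. Of 16 measured in P4 minus P1, 1 passed 2-fold upward and 3 downward, beside 5.47% and 1.75% of all measured genes, with a median difference of -0.47 against -0.06 over all genes. The higher one was Nrp1, a semaphorin receptor gene, at 2.43, whose spot on P1 had 6 raised neighbours without being raised itself. The lower ones were Cd55, a complement inhibitor that recent emigrants carry little of, at -1.16, and Ly6c1 and Ly6c2 at -1.16 and -1.19, near-identical genes whose probes may share targets. In P3 minus P1, Nrp1 was at 4.94, Cd55 at -1.26 and Ly6c1 and Ly6c2 both at 0.04. In P4 minus P2, 3 were higher and 4 lower, beside 4.85% and 3.43% of all genes (median -0.30 against 0.01). Ccr9, a chemokine receptor carried from thymus to gut, was 5.05 higher and Itgae 3.45 higher, and Ly6c1 and Ly6c2 were at -2.37 and -2.46. P4 minus P1 was 0.02 for both Ccr9 and Itgae, beside 0.12 for Dntt. In P4 minus P3, 4 were higher and 4 lower, beside 4.15% and 8.92% (median 0.15 against 0.04).

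Transcription factors of thymocytes had a median of 0.01 in P4 minus P1, 0.00 in P4 minus P2 and 0.03 in P4 minus P3. Of 20 measured, 3 were higher and 0 lower in the first, 3 and 0 in the second, and 3 and 2 in the third. The shares of all genes were 5.47% higher and 1.75% lower in the first, 4.85% and 3.43% in the second, and 4.15% and 8.92% in the third. Sox4, a factor of early thymocytes, had levels of 0.52 in P4, -1.07 in P3, -1.45 in P2 and -0.38 in P1, highest in P4. It was 1.97 higher in P4 than in P2 and 0.90 higher than in P1. Id2, an inhibitor of E proteins, was 1.73 higher in P4 than in P2, and Ikzf2, which encodes Helios, 1.42 higher. In P3 minus P2, Id2 was at 1.92 and Ikzf2 at 1.29. Against P1, Ikzf2 was 2.66 higher in P4, Ikzf3, which encodes Aiolos, 1.53 higher, and Zbtb7b, a factor of the CD4 lineage, at least 4.85-fold higher. In P3 minus P1, Ikzf2 was at 2.53, Ikzf3 at 2.36 and Zbtb7b at least 16.3-fold higher.

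Of the genes of thymocyte stages, 5 of 14 measured passed 2-fold upward in P4 minus P1, 0 passed it downward and the median was 0.00. Of all measured genes 5.47% passed upward and 1.75% downward in that pair. The 5 were Kit at 3.96, Il2ra at least 23.2-fold, Plxnd1 at 1.40, Tox at 1.12, and Aqp11 at least 6.83-fold. The Aqp11 spot lay in a locally bright area of P4, with 4 raised neighbours. Kit and Il2ra, which encode receptors for stem cell factor and interleukin-2, are markers of early thymocytes but also of activated lymphocytes. The same 5 were the ones higher in P4 than in P2, of 15 measured (median 0.33, beside 4.85% of all genes higher), with Il2ra at 3.04 and Tox at 1.56. Il2ra and Tox stood at 3.05 and 2.44 in P3 minus P2. In P4 minus P3, 1 of 18 was higher and 4 were lower, beside 4.15% and 8.92% of all genes. Dtx1, a Notch target, and Cd1d1, which presents lipids to natural killer T cells, were 0.87 and 0.57 higher in P4 than in P2.

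V(D)J joints are closed by end joining factors that all cells use. Of the 12 measured, 0 were 2-fold apart in P4 minus P1, P4 minus P2 or P4 minus P3, and the medians were -0.06, -0.12 and 0.08. Of all measured genes, 5.47%, 4.85% and 4.15% were 2-fold higher and 1.75%, 3.43% and 8.92% lower. Their medians were -0.06, 0.01 and 0.04. A count of 0 among 12 genes lies near these shares. Polm, the polymerase most like terminal transferase, stood at -0.53, -0.57 and -0.40 in these pairs. Lig4, which encodes the ligase of this pathway, was at 0.42 in P4 minus P2. Hmgb1 and Hmgb2, cofactors of the recombinase, were at -0.24 and -0.21.

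Partners of THEMIS in T cell receptor signalling had medians of -0.09, 0.19 and 0.15. Of 13 measured, 1 was higher in P4 minus P1 and in P4 minus P2 and 1 lower in P4 minus P3, and it was Themis2 each time, at 2.68, 1.48 and -2.24; the shares of all genes past 2-fold that way were 5.47%, 4.85% and 8.92%. Themis2 is the relative of Themis found in B cells and macrophages, and its levels were -1.53 in P4, 0.71 in P3, -3.01 in P2 and -4.21 in P1. Ptpn6, which encodes SHP-1, a phosphatase that THEMIS binds, was at -0.54 in P4 minus P2. Lcp2 and Plcg1, an adaptor and a phospholipase gene of the same cascade, were at 0.46 and 0.35.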

How the data were processed

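Per the labels' protocols, total RNA was reverse transcribed with random primers, and Cy3-labelled cRNA was hybridised to 1-colour Agilent arrays, 1 per subset. The authors obtained each spot's intensity from Agilent Feature Extraction, version 11.0.1.1, per the submitters' processing notes. The deposited processed signal is background-subtracted and detrended within an array and not normalized between arrays. The authors' deposited log2 value table lists 26188 probes with a median of 8.85; it correlated with the log2 processed signal at 0.999 or more and had the same median in every column; its normalization tool is not stated.

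Here, log2 processed signal minus the 75th percentile of non-control spots was averaged over the spots of a probe without outlier flags (122 to 152 flagged spots per array were left out; 0 were saturated). RefSeq accessions named 32994 of 56605 probes (58.3%) through a GRCm38.p6 gene table. The headers name an older build, so only the sequence windows carry coordinates. A gene took its probe with the highest mean and entered a pair if above background on either array; a value at background was floored at that array's lowest detected signal, and such a difference is a bound. A count past 2-fold is by size alone. Repeated spots of probes at a level of 0 or more had a 95% half-width of 0.18 for a difference. Other cell markers, related lists and the rule for named genes (up to 4 per list with the widest P4 minus P2 difference, those past 2-fold in P4 minus P1, and the 3 nearest profiles) were chosen, like the members, with earlier results of these data known. The planned normexp correction (offset 50) used median signals. Counting was tested on simulated data. The summed level of erythroid markers is not reported here. Probe sequences were not used here, so cross-hybridization was not checked. Tools were limma 3.58.1 in R 4.3.3, and matplotlib 3.10.9, scipy 1.17.1, pandas 2.3.3 and numpy 2.4.6 in Python 3.11.15.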

Additional observations from a re-analysis of the deposited data

Results flagged for a closer look

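Itm2a was singled out because the difference between CD62Llow and CD62Lhigh cells had opposite signs in the CD44 settings. Among CD44low cells it was higher with low CD62L (P4 minus P1, 1.57), and among CD44high cells it was lower (P3 minus P2, -1.09). Each value passed its spot-error half-width of 0.40 and kept its sign under every alternative run, between 1.57 and 1.63 for the first and -1.09 and -0.98 for the second. The difference between them was not tested, since each subset has 1 array.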

How the results depend on the processing

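No paired analysis was possible because each subset has 1 array and 1 replicate, and no replicate could be left out. Counts of members at least 2-fold apart were 3, 2 and 1 for P4 against P1, P2 and P3, and 3 in each of P3 minus P1, P3 minus P2 and P2 minus P1. In P4 minus P3 the count was 0 with quantile normalization, normexp correction, the authors' processed values or a 4-fold threshold, and 2 with no filter and no floor (Dntt, and Rag2 from readings at background), with the mean over probes, or without member probes in locally bright areas; Dntt (1.00) and Cd24a (-0.94) both lie at the threshold there. In P4 minus P1 it was 1 with normexp and 1 at 4-fold, and in P4 minus P2 it was 1 at 4-fold. The other 50 of 60 counts stayed within 1.5 times, but with scaling to the median of detected probes the 1 member in P4 minus P3 was Cd24a, lower at -1.01, in place of Dntt, then at 0.94. Of the recomputed member differences, 232 moved by less than their error and 20 by more, all of them values of Arpp21, of normexp or of the second Cd24a or Themis probe, and 0 differences past 2-fold changed sign. Over these alternatives Dntt ranged from 2.15 to 3.22 in P4 minus P2 and from -0.13 to 0.15 in P4 minus P1, and Arpp21 from -5.13 to -0.84 in P4 minus P1. List medians moved by more than the spot error in 1 case, that of recent thymic emigrant and naive genes in P3 minus P1, which was -0.63 with the authors' processed values against -0.95, and by less in 119. Leaving out spots in locally bright areas was chosen after seeing the data. Rag1, Rag2 and Ptcra are limited by the background of the arrays.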

Other observations

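Genes above background on a single array numbered 111 for P4, 946 for P3, 141 for P2 and 196 for P1. Of these, 32.4% in P4, 6.34% in P3, 51.8% in P2 and 42.9% in P1 lay in locally bright areas of that array, against 1.00%, 1.79%, 2.65% and 2.41% of all genes. Itgae, Ccr9 and Sox4 were, with Dntt, lower in P2 than in P1, at -3.43, -5.03 and -1.07, and Dtx1 and Id2 were at -0.95 and -1.14. Cd4 had levels of -0.39, 0.22, -0.38 and -0.40 in P4, P3, P2 and P1, and Cd40lg was at background on every array.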
